A study of Mus musculus with 6 samples.

Results

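A set of 10 genes of the matricellular and adhesive extracellular matrix is described here, out of 32179 genes in the deposited table: the tenascins Tnc and Tnxb, the thrombospondins Thbs1, Thbs2 and Thbs3, periostin (Postn), fibronectin (Fn1), Sparc, and the small leucine-rich proteoglycans biglycan (Bgn) and asporin (Aspn). They were selected by gene symbol, as a functional family, with the KO against control results of these same libraries already known. Their values in that contrast are therefore given as a description, and nothing is supported with them. All 10 symbols were found once each, and all 10 passed the expression minimum used for testing (a mean normalised count of at least 10). The libraries are bulk RNA of EGFP-positive vascular smooth muscle cells that were sorted from skeletal muscle of male C57BL6J mice aged 8 to 24 weeks. All mice carried the mTmG reporter, in which Cre recombination switches a cell to EGFP, all received tamoxifen, and every source label reads Gprc5c-floxed. Of the libraries, 3 come from controls, whose genotype label is wild type, and 3 from mice whose genotype label is iSM-G5C-KO. Gprc5c, the floxed gene, encodes an orphan G protein-coupled receptor. Neither the promoter driving Cre nor the number of animals behind a library is stated in the labels.

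Matricellular proteins are secreted into the matrix but serve less as scaffold than as modulators: they bind integrins, syndecans, CD36 or CD47 on the cell and collagens, growth factors or proteases outside it. Tenascin-C, thrombospondin-1, periostin and SPARC can rise with injury, mechanical load or growth of new tissue. Fibronectin, biglycan and tenascin-X are also lasting components of vascular and muscle connective tissue. Vascular smooth muscle cells and fibroblasts both make most of these proteins.

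The depth of the libraries was estimated at 1479069 to 2935114 reads. Both libraries numbered 1 were the deepest of their group and both numbered 3 the shallowest. Control library 3 had 29707 genes above 0, against 20481 to 21179 in the others. The 8 smooth muscle markers on the list, such as Myh11 and Acta2, were read in every library, with a summed normalised count of 11303 to 11859 in controls and 9995 to 11622 in KO libraries. The 12 fibroblast markers were also above 0 in every library, summing to 6868 to 10444 in controls and 5858 to 10051 in KO libraries, and the 8 pericyte markers to 10197 to 15680 and 10875 to 18088. Gprc5c was at 428, 532 and 497 among controls, in order of library number, against 328, 305 and 360 among KO libraries. The groups did not overlap, but the log2 difference of -0.55 (standard error 0.13) had an adjusted p of 0.999 in limma's test over all genes, and of 0.142 with the replicate block. Values below follow the same order of library numbers 1, 2 and 3. In bulk RNA, fewer cells of a type and less RNA per cell cannot be told apart.

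Levels can be compared between genes only per exon length. On the scale of normalised counts per kb of merged exon (GENCODE M21), Sparc had the highest mean of the 10, at 301.0 ± 68.5 (SD over all 6 libraries), which ranked 54 of 12725 tested genes with a length. Thbs1 followed at 255.0 ± 70.8 and Aspn at 211.2 ± 23.2 per kb. Sparc was above Thbs1 in 3 of 6 libraries and Thbs1 above Aspn in 4 of 6, so these neighbours did not differ beyond their spread. Aspn was above Tnxb in 6 of 6 libraries. Tnxb (143.5 ± 36.8 per kb), Fn1 (118.3 ± 36.3) and Bgn (106.1 ± 17.8) formed the middle, with Fn1 above Bgn in 3 of 6 libraries. Postn was at 83.9 ± 30.6 and Thbs2 at 69.4 ± 16.3 per kb. Tnc, at 53.5 ± 35.2, and Thbs3, at 41.7 ± 6.21, were the lowest, and Tnc was above Thbs3 in 3 of 6 libraries. These are levels of the sorted population as a whole. Merged exons join all annotated transcripts of a gene, from 2354 bp for Aspn to 8702 bp for Postn and above. Where that length exceeds the transcripts in use, the level per kb is understated, so the order depends in part on annotation.

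**Figure D1:**
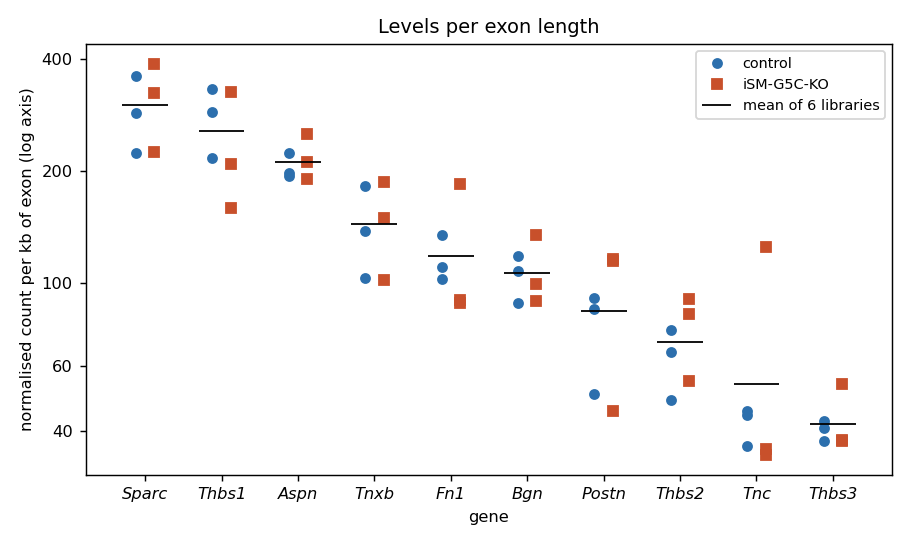
Normalised count per kb of merged exon (log axis) of the 10 genes in the 3 control (circles) and 3 iSM-G5C-KO libraries (squares), with the mean of all 6 as a line. Sparc, Thbs1 and Aspn lead with overlapping ranges, and the single square far above its line for Tnc is KO library 2.

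Upstream sequences are shown for 3 genes that stand for the patterns described after them: Postn for the largest difference between numbers, Tnxb for the profile shared with Sparc, and Tnc for the high value in KO library 2. RefSeq windows (GRCm38.p6) of 8 of the 10 genes were searched, and those of Thbs1 and Fn1 were not analysed here. Each run is the 250 bases before the annotated start, 5′ to 3′ on the gene's strand, at chr3:54360857-54361106 (plus strand), chr17:34670285-34670534 (plus strand) and chr4:64047016-64047265 (minus strand). Capitals mark matches on either strand to TATAAA, the GC box GGGCGG, the AP-1 motif TGANTCA, the TEAD motif GGAATG or the CArG box of serum response factor.
Postn: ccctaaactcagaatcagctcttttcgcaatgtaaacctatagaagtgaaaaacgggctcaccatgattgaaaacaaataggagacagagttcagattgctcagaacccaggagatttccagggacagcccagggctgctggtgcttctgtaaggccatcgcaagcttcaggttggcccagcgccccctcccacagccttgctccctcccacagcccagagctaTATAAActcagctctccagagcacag
Tnxb: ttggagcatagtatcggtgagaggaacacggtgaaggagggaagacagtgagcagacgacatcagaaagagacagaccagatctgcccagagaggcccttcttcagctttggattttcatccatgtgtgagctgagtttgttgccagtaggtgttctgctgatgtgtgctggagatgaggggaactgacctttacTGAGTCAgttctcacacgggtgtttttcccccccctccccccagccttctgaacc
Tnc: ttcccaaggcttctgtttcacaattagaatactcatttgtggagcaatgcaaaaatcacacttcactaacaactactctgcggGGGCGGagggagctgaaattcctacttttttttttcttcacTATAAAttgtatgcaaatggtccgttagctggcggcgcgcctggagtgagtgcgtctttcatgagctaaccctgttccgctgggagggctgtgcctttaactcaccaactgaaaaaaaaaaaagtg
Postn has TATAAA 26 to 21 bases before its start, and Tnc has it 126 to 121 bases before its start together with GGGCGG at 167 to 162. In Tnxb the capitals are a match to TGANTCA, which reads alike on both strands, 55 to 49 bases before the start. Of the 8 windows, TATAAA is found in Postn, Tnc, Thbs2 and Aspn and GGGCGG in Tnc, Thbs3 and Bgn, while GGAATG and the CArG box are in 0 of 8. The window of Sparc begins at a RefSeq start 3103 bases from the gene's start in the deposited table, and 238 of its bases lie in annotated Sparc exons, so it is not upstream of the whole gene. Of 32851 windows of the same length 12.4% hold TATAAA, 32.7% GGGCGG, 6.75% TGANTCA, 12.6% GGAATG and 1.47% a CArG box. A match is a description of the letters, and no binding or chromatin data are used here.

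The tenascins are large glycoproteins of fibronectin type III repeats. Tenascin-C (Tnc, ENSMUSG00000028364, chromosome 4, 63959785 to 64047015, minus strand, GRCm38) is the form tied to injury and remodelling. The controls held 344, 352 and 283 normalised counts, against 268, 970 and 279 among KO libraries. KO library 2 stood far above the rest, while KO libraries 1 and 3 lay below every control. The means were 326.3 ± 37.7 and 505.7 ± 402.2 (SD, n = 3 each), a 1.55-fold ratio, with a log2 difference of 0.36 and a standard error of 0.46. Without KO library 2 the log2 difference was -0.25, so the direction of the mean rested on that library. With sample quality weights it was 0.77. Tenascin-X (Tnxb, chromosome 17, 34670535 to 34719815, plus strand), which binds fibrillar collagen and whose loss causes lax connective tissue, was at 1261, 1680 and 2225 among controls against 1242, 1826 and 2276 among KO libraries. Its groups overlapped throughout, with means of 1722 ± 483.4 and 1781 ± 518.4 and a log2 difference of 0.04 (standard error 0.28). Leaving out control library 1 gave -0.16, and leaving out KO library 3 gave -0.15.

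Thrombospondins are secreted multimers that bind calcium. Thrombospondin-1 (Thbs1, chromosome 2, 118111876 to 118127133, plus strand) inhibits angiogenesis through CD36, signals through CD47 and can activate latent TGF-beta. It was at 2015, 1751 and 1312 among controls against 1981, 1269 and 962 among KO libraries. Each KO library was below the control of the same number, by 0.02, 0.46 and 0.45 on the log2 scale for numbers 1, 2 and 3, but the groups overlapped. Means were 1693 ± 355.1 and 1404 ± 522.7, with a log2 difference of -0.31 and a standard error of 0.28. That difference ranged from -0.59 without KO library 1 to -0.07 without KO library 3. Its paralog thrombospondin-2 (Thbs2, chromosome 17, 14665500 to 14694262, minus strand), also anti-angiogenic and a regulator of collagen fibril assembly, was at 340, 456 and 525 among controls against 381, 635 and 578 among KO libraries. Here each KO library was above its same-numbered control, by 0.16, 0.48 and 0.14 on the log2 scale. The groups again overlapped, with means of 440.3 ± 93.5 and 531.3 ± 133.3 and a log2 difference of 0.26 (standard error 0.23). That difference ranged from 0.0851 without control library 1 to 0.48 without KO library 1. Thrombospondin-3 (Thbs3, chromosome 3, 89215180 to 89226837, plus strand), a pentameric form without the anti-angiogenic repeats, varied little: 205, 197 and 182 among controls against 181, 259 and 183 among KO libraries. Its log2 difference was 0.07 (standard error 0.16) and became -0.09 without KO library 2. Thbs3 shares 318 bp, or 6.59% of its merged exons, with Mtx1 on the opposite strand, which was at 52 to 90. The labels do not state whether the counting used strand.

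Periostin (Postn, chromosome 3, 54361109 to 54391037, plus strand) is a fasciclin-domain protein that binds integrins and promotes collagen crosslinking. It was at 439, 742 and 795 among controls against 394, 999 and 1011 among KO libraries. Both libraries numbered 1 were low, and KO libraries 2 and 3 exceeded every control. Means were 658.7 ± 192.1 and 801.3 ± 352.8, with a log2 difference of 0.21 (standard error 0.39). Without KO library 1 it was 0.66, and without control library 1, KO library 2 or KO library 3 it was -0.06, -0.01 and -0.02.

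Fibronectin (Fn1, chromosome 1, 71585520 to 71653200, minus strand) is the adhesive glycoprotein that cells assemble through integrin alpha-5 beta-1 and on which other matrix proteins are laid down. Its values were 1198, 1570 and 1285 among controls against 1035, 2151 and 1053 among KO libraries. KO library 2 was the highest and the other KO libraries the lowest, so the KO libraries enclosed the controls. The ratio of means was 1.05 while the log2 difference was -0.01 (standard error 0.29), so the sign depends on how the libraries are averaged. It depends on single libraries too, with -0.36 without KO library 2, 0.17 without KO library 1, 0.15 without KO library 3 and 0.0985 without control library 2. SPARC (Sparc, chromosome 11, 55394500 to 55423183, minus strand) binds collagen and assists its deposition. It was at 847, 1085 and 1361 among controls against 851, 1227 and 1469 among KO libraries, with means of 1098 ± 257.2 and 1182 ± 311.4 and a log2 difference of 0.10 (standard error 0.24). Without control library 1 or KO library 3 this turned to -0.08.

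Biglycan and asporin are class I small leucine-rich proteoglycans or proteins, which bind collagen and TGF-beta. Bgn (chromosome X, 73483602 to 73495933, plus strand) was at 538, 655 and 719 among controls against 546, 819 and 606 among KO libraries. The groups overlapped, with a log2 difference of 0.03 and a standard error of 0.18. Leaving out KO library 2 gave -0.14, and leaving out control library 1 gave -0.08. Aspn (chromosome 13, 49544443 to 49567565, plus strand) was the steadiest of the 10, at 457, 465 and 525 among controls against 497, 447 and 592 among KO libraries. Its highest library was 1.32 times its lowest, against 3.62 times for Tnc, and its log2 difference was 0.08 (standard error 0.14) and -0.03 without KO library 3.

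**Figure D2:**
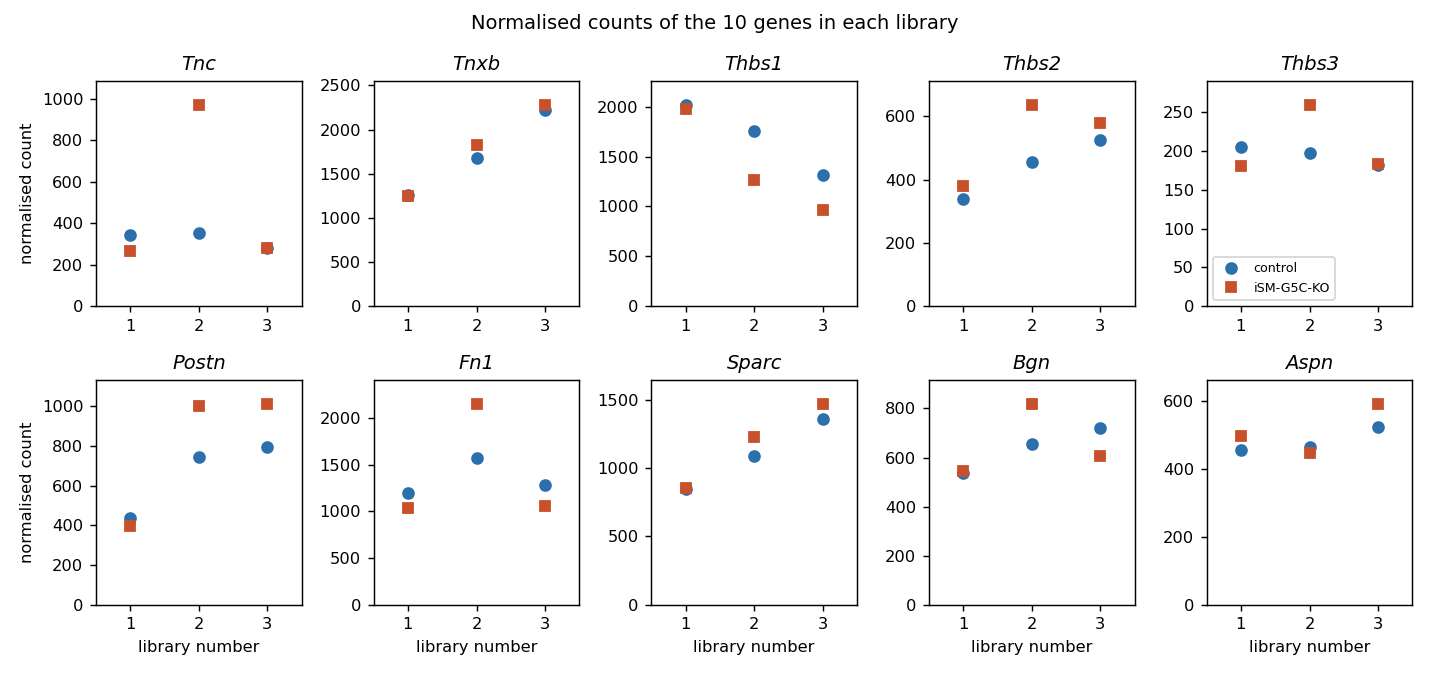
Normalised count of each gene (vertical axes from 0, each panel on its own scale) against the library number of the labels, for control (circles) and iSM-G5C-KO libraries (squares). Same-numbered libraries lie close together for Tnxb and Sparc, and KO library 2 stands apart for Tnc at 970.

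In limma's fit over all 12735 tested genes, 0 of the 10 genes passed an adjusted p of 0.05 for KO against control (0% of all tested genes did), and each had an adjusted p of 0.999. At an unadjusted p under 0.05 there were 0 of 10, against 1.81% of tested genes. The control and KO libraries overlapped in all 10, where 4.91% of tested genes showed no overlap. With the replicate number as a block, 0 of 10 passed (0.00785% of tested genes) and 2 of 10, Thbs1 and Thbs2, had an unadjusted p under 0.05, against 10.2% of tested genes. The fitted difference was above 0 for 8 genes, as for 50.18% of all tested genes, and below 0 for Thbs1 and Fn1. The median was 0.08 beside 0.00 over all tested genes, and its sign changed when some single libraries were left out. The 95% intervals were wide: for Tnc from -0.71 to 1.43, for Thbs1 from -0.96 to 0.34 and for Aspn from -0.24 to 0.40. Each interval gives the differences compatible with 3 libraries per group, and does not tell what size of difference would have passed the threshold.

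**Figure D3:**
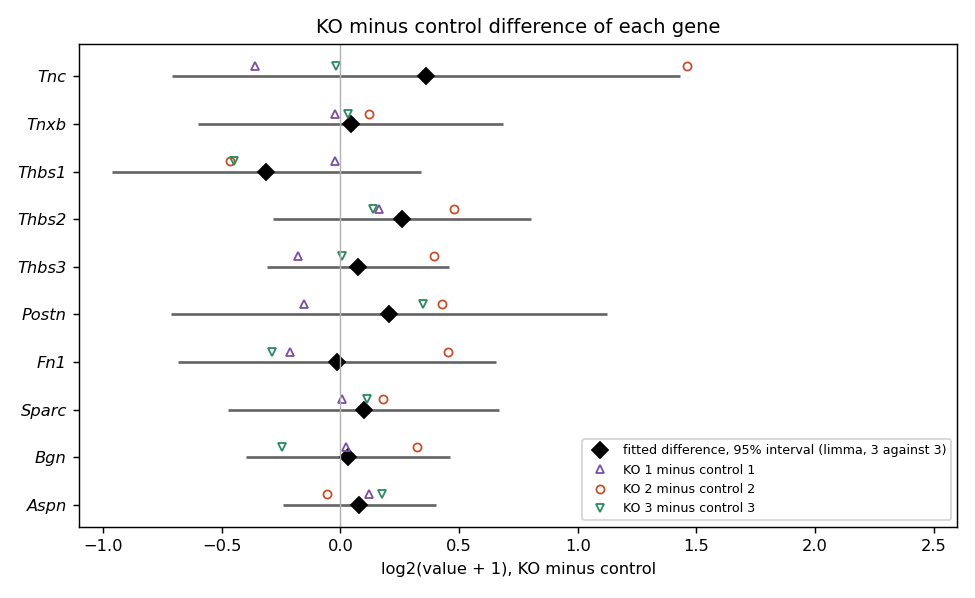
Difference of log2(value + 1), KO minus control, for each gene: the fitted value with its 95% interval from limma (diamonds and lines, 3 against 3 libraries) and the difference between same-numbered libraries (open symbols). Every interval includes 0, and the open circle of Tnc at 1.46 is the comparison of the libraries numbered 2.

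KO library 2 carried the highest value of 5 of the 10 genes (Tnc, Thbs2, Thbs3, Fn1 and Bgn), where it was the highest library for 17.0% of all tested genes. The difference from control library 2 was 1.46 on the log2 scale for Tnc, 0.48 for Thbs2, 0.45 for Fn1, 0.43 for Postn, 0.39 for Thbs3, 0.32 for Bgn, 0.18 for Sparc and 0.12 for Tnxb. It went the other way for Thbs1, at -0.46, and for Aspn, at -0.0568. Between libraries numbered 1 it was -0.36 for Tnc and -0.21 for Fn1, and between those numbered 3 it was -0.02 and -0.29. Tnc was the 1 gene of the 10 with a value in KO library 2 at least 2 times that of any other library, which held for 114 tested genes (0.895%). The same library was the highest for 12 of 12 genes of a proliferation list that was added after the values were seen. Their summed normalised count was 1387 there, against 226 to 406 in controls and 179 and 189 in the other KO libraries, and Mki67, a marker of cycling cells, was at 552 against 71 to 185. In KO library 2 the fibroblast markers summed to 10051, against 9158 in control library 2 and 10444 in control library 3. Its smooth muscle markers summed to 9995, the lowest of the 6. The part of cycling or other cells in the Tnc value was not tested.

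The library numbers were compared next. The labels number the libraries 1 to 3 in both groups without saying what a number marks. In a limma F-test of the number, with group in the model and no use of the KO difference, 6 of 10 genes passed an adjusted p of 0.05: Tnxb (adjusted p = 0.00183), Postn (0.00295), Sparc (0.0035), Thbs1 (0.00658), Thbs2 (0.0116) and Fn1 (0.0253). Over all tested genes 16.2% passed, and 31.7% of those whose mean was at least that of Thbs3, the lowest of the 10. Tnc, Bgn, Aspn and Thbs3 did not pass (adjusted p of 0.107, 0.106, 0.146 and 0.337). The count fell to 0 of 10 without control library 3 (0 genes in all, 2894 at an unadjusted p under 0.05) and to 0 without KO library 3 (77 genes in all). It was also 0 in limma without an intensity trend and without the expression minimum, where 0 genes passed although 3182 and 4105 had an unadjusted p under 0.05. It was lower without KO library 1 and higher without control library 2, as was the count over all tested genes.

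Postn, whose upstream window is printed above, had the largest log2 difference of the 10 between the libraries numbered 3 and 1, at 1.11. Its mean was 416.5 in the libraries numbered 1, against 870.5 and 903.0 in those numbered 2 and 3, while control and KO of a number differed by at most 0.43 on the log2 scale. Tnxb averaged 1252, 1753 and 2250 for numbers 1, 2 and 3, Sparc 849.0, 1156 and 1415, and Thbs2 360.5, 545.5 and 551.5. Thbs1 ran the other way, with 1998, 1510 and 1137. Fn1 was highest in the libraries numbered 2, at 1860 against 1116 and 1169. For 5 of the 10 genes (Tnxb, Thbs2, Postn, Sparc and Bgn) both libraries numbered 1 lay below the 4 others, as for 18.2% of tested genes, and for Thbs1 both lay above them, as for 23.3%. The closest profiles within the family were those of Tnxb and Sparc, whose centred log2 values differed by a root mean square of 0.05 over the 6 libraries.

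**Figure D4:**
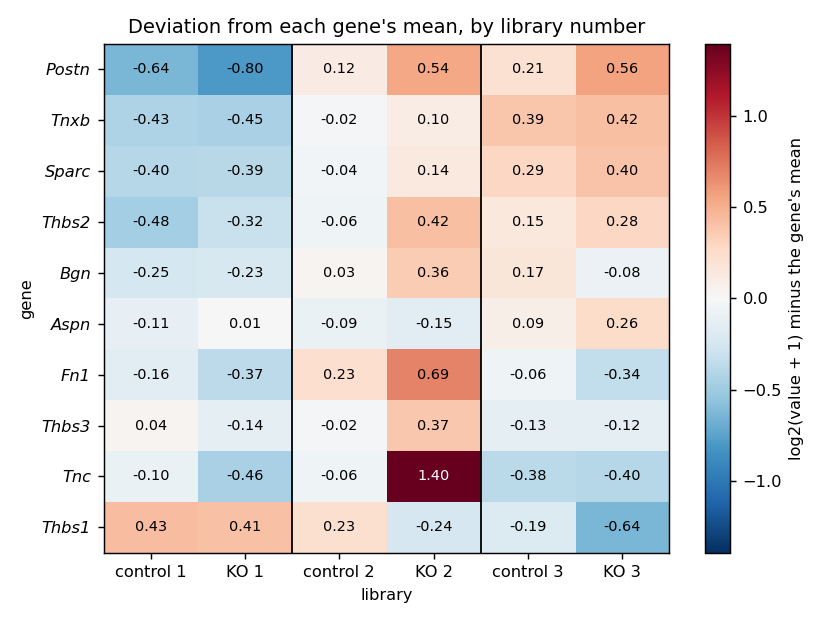
Deviation of log2(value + 1) from each gene's own mean (colour and printed value), with libraries side by side by number and genes ordered by the difference between numbers 3 and 1. The libraries numbered 1 are below the mean for Postn, Tnxb, Sparc and Thbs2 and above it for Thbs1, and the darkest cell, 1.40, is Tnc in KO library 2.

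Markers listed for other cell types, and depth, moved with the numbers as well. Whether a listed marker came from that cell type or from the smooth muscle cells was not tested. Both libraries numbered 1 lay below the other 4 for 12 of 12 fibroblast markers, among them Col3a1, Pdgfra and Dpt, and for 18.2% of tested genes. All 12 markers passed the F-test of the number, where 16.2% of tested genes did. The fibroblast sums were 6868 and 5858 in the libraries numbered 1, 9158 and 10051 in those numbered 2, and 10444 and 9142 in those numbered 3. For 8 of 8 pericyte markers, such as Rgs5 and Kcnj8, both libraries numbered 3 lay above the other 4, as for 9.83% of tested genes. The pericyte sums there were 15680 and 18088 against 10197 to 13784, and 7 of 8 markers passed. Of the 8 smooth muscle markers 1 passed, Synpo2. Markers of skeletal muscle fibres passed in 8 of 8, with both libraries numbered 1 below the others for 6 of 8, and both numbered 1 were also lowest for 7 of 10 endothelial markers, of which 3 passed. Of 6 tested leukocyte markers 5 passed, and both libraries numbered 2 were lowest for 7 of the 8 listed, as for 4.81% of tested genes. The 7 include Cd3e, at 0 to 2, and Cd79a, at 0 to 11, which were too low to be tested. Estimated reads were 2935114 and 2581454 for number 1, 2253883 and 2200237 for number 2, and 1556750 and 1479069 for number 3. Their part in the matrix genes' differences was not tested, and number and depth cannot be told apart.

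The other family members and partners on the lists numbered 70, of which 64 were tested. By number, 35 of 64 passed, against 16.2% of all tested genes and 31.7% of those whose mean was at least that of Thbs3. Some of the relatives lie below that mean. The TGF-beta genes with the smallest p were highest in both libraries numbered 1, like Thbs1. Tgfb3, a TGF-beta ligand, was at 906, 654 and 468 among controls against 895, 593 and 422 among KO libraries (adjusted p = 0.00162 with limma), and Smad7, an inhibitor of the pathway, at 423, 245 and 164 against 350, 146 and 140 (0.0024). Tgfb2, a further ligand (0.00325), and Lox, the enzyme that crosslinks collagen (0.0046), had the same order. Lowest in the libraries numbered 1, like Tnxb and Sparc, were the integrin-binding plasma and matrix protein vitronectin (Vtn, 436, 598 and 857 among controls against 474, 695 and 1035 among KO libraries, adjusted p = 0.00162) and 3 receptors. These were Sdc1, a heparan sulphate proteoglycan (0.00183), Lrp1, which clears thrombospondin-1 by endocytosis (0.00236), and Cd36, the receptor for the anti-angiogenic repeats of thrombospondins 1 and 2 (0.0026). Vtn is on the pericyte list too. Since 0 genes in all passed without control library 3, this count of relatives is 0 there as well.

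Between KO and control, 0 of the 64 relatives passed limma's test over all genes (each adjusted p 0.999), with 32 higher, 32 lower and a median log2 difference of -0.01. A single relative had an unadjusted p under 0.05, tenascin-N or tenascin-W (Tnn), which was at 20, 41 and 31 among controls against 0, 19 and 0 among KO libraries (unadjusted p = 0.0168 and adjusted p = 0.999 with limma). That is 1 of 64, against 1.81% of tested genes. With the replicate block 0 of 64 passed, and 15 of 64 had an unadjusted p under 0.05, against 10.2% of tested genes. All 3 KO values were below those of the controls, at low levels where 1 normalised count weighs heavily. Tnr, the tenascin of the nervous system, was at 1 to 15 and was not tested (named outside the rule for relatives). Of the other thrombospondins, Comp, a cartilage and tendon form, was at 34, 73 and 57 among controls against 31, 24 and 42 among KO libraries, and Thbs4 at 254, 273 and 466 and 307, 329 and 391.

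Among CCN proteins 4 of 5 tested were higher and 1 lower, with a median of 0.05. Wisp1 (Ccn4) was at 104, 77 and 50 among controls against 81, 55 and 21 among KO libraries, and Ctgf (Ccn2), a TGF-beta and YAP target, at 567, 541 and 410 against 774, 532 and 342. Wisp2 (Ccn5) held 16, 48 and 37 against 36, 42 and 62, and Cyr61 (Ccn1), an integrin ligand, 577, 724 and 592 against 740, 637 and 689. The 5 tested relatives of Sparc had a median of -0.03, with Sparcl1 at 1458 to 1677 in controls and 1396 to 1968 in KO libraries. Spock2 (testican-2) read 97, 154 and 93 against 91, 83 and 101, Fstl1 (follistatin-like 1) 705, 839 and 890 against 720, 1067 and 990, and Smoc1 57, 123 and 61 against 93, 70 and 35. Tgfbi, the fasciclin relative of Postn, had a log2 difference of 0.01, with 111, 113 and 164 against 127, 97 and 169. Of 10 other leucine-rich proteoglycan genes 3 were higher and 7 lower (median -0.07). Lum, lumican, was at 182, 223 and 259 among controls against 116, 203 and 185 among KO libraries, and Omd, osteomodulin, at 14, 13 and 13 against 11, 5 and 8, without overlap but at low values. Optc, opticin, held 45, 60 and 40 against 50, 18 and 31, and Prelp, which anchors basement membranes, 342, 451 and 503 against 410, 510 and 587. Of 9 other adhesive glycoproteins 6 were higher and 3 lower (median 0.12). Fbln1, which encodes the elastic-fibre protein fibulin-1, was at 67, 173 and 101 among controls against 52, 81 and 73 among KO libraries. Nid1, the basement membrane linker nidogen-1, held 932, 1201 and 1588 against 987, 1668 and 1766, and Mgp, an inhibitor of calcification, 109, 140 and 218 against 114, 209 and 241. Spp1, osteopontin, had like Tnc its highest value in KO library 2, at 66 against 4 to 15 elsewhere (named after its values were seen).

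The receptors split evenly, 9 higher and 9 lower (median -0.02). Itga8, an integrin subunit of smooth muscle that binds tenascin-C and fibronectin, was at 1132, 993 and 744 among controls against 1201, 600 and 563 among KO libraries. Its relative Itga9 was at 350, 404 and 272 and 323, 319 and 244, Itgb5 at 402, 456 and 513 and 438, 503 and 623, and Sdc1 at 166, 301 and 321 and 189, 408 and 450. The 13 TGF-beta genes had a median of -0.05, with 6 higher and 7 lower. Bmp1, a procollagen C-proteinase, held 275, 302 and 329 against 273, 492 and 363. The signal transducers Smad2 and Smad4 had 111, 106 and 90 against 96, 122 and 118, and 347, 266 and 263 against 343, 237 and 232.

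**Figure D5:**
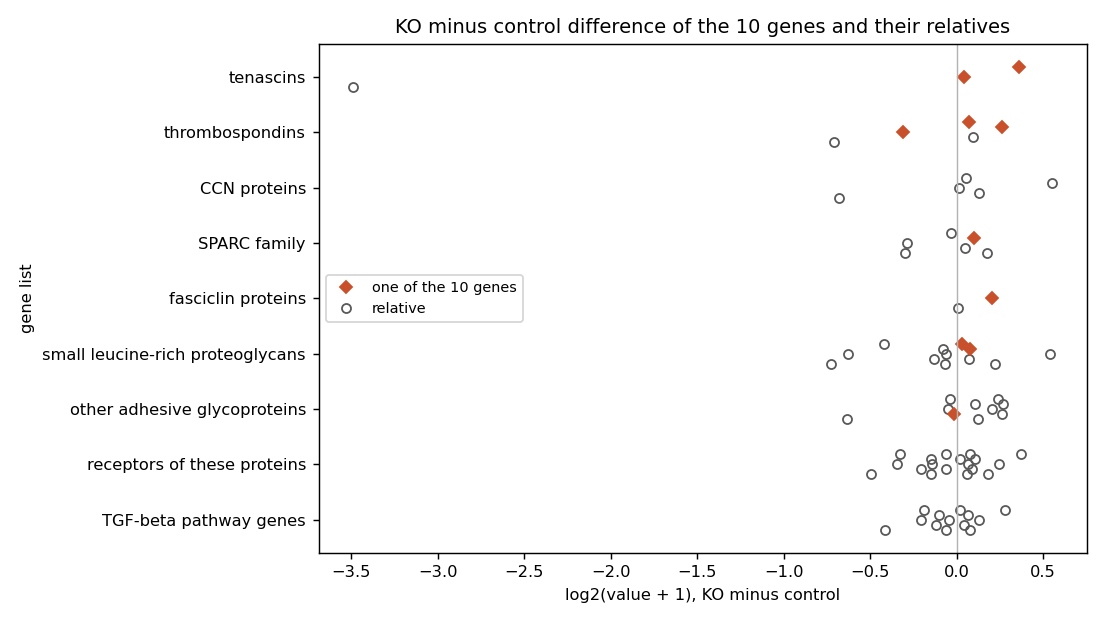
Difference of log2(value + 1), KO minus control, of the 10 genes (filled diamonds) and the 64 tested relatives (open circles) by list; vertical offsets within a list only separate points. Most points lie within 1 unit of 0, and the far left circle is Tnn, whose size depends on the pseudocount since it was listed at 0 in 2 KO libraries.

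The genes with the most similar profiles were taken as those with the smallest root mean square difference of centred log2 values over the 6 libraries, out of 8304 genes with a mean of at least 50. For Tnc these were Mcm2, a subunit of the replicative helicase (0.21), and Has2, a hyaluronan synthase (0.22), both with their highest value in KO library 2, at 116 and 121. For Postn they were Acvrl1, a BMP receptor (0.04), and Cmtm3 (0.07), for Sparc Adamtsl4, a fibrillin-binding matrix protein (0.04), and Fabp4 (0.04), and for Tnxb Tbc1d13 (0.05) and Gper1 (0.05). Thbs1 was nearest to the motor protein gene Myo1e (0.04) and to Ctnnal1 (0.06), Thbs2 to Mgat4b (0.04) and Adprh (0.05), and Thbs3 to Zfp637 (0.05) and Pgam5 (0.05). Fn1 was nearest to Slc43a3 (0.12) and Jpt1 (0.13), Bgn to Rpl32 (0.04) and Fblim1 (0.05), and Aspn to Gucy1b3, a subunit of soluble guanylate cyclase (0.02), and Hsd17b11 (0.03). These likenesses are a description over 6 libraries.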

How the data were processed

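Per the labels' protocols, cells positive for CD31, CD45 or Ter119 were depleted, viable EGFP-positive cells were sorted, and libraries were made from 5 ng of total RNA with a stranded low-input kit. The submitters' processing notes list Trimmomatic 0.39, STAR 2.6.1d, featureCounts 1.6.5, Subread and DESeq2 1.18.1 with mm10 and GRCm38.p5. The deposited values are a score, here called normalised counts. They were taken to be read counts scaled by the authors with a single factor for each library and then rounded. The depth estimates rest on this assumption. Whole reads were not recovered, so no count model was used, and depth was estimated from the spacing of low values. The labels do not tell whether libraries of a group are separate mice, and p-values then cover only the spread among these libraries, which may be technical.

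Tests used limma 3.58.1 (R 4.3.3) with an intensity trend on log2(value + 1), 2-sided, on the 12735 genes with a mean of at least 10, with Benjamini-Hochberg adjustment over all of them and a threshold of 0.05. The fit was tested on simulated data. Fold changes on this scale understate those of low genes. The replicate number was tested by an F-test with group in the model. Deviations from group means correlated at 0.59, 0.31 and 0.44 between same-numbered libraries and at most 0.16 between others, so the numbers were treated as pairing libraries, from the data and from no label. Within a group the deviations of a gene cancel out, so these correlations depend on each other. The fits with the replicate number use the same values. The 10 genes and all lists were chosen with earlier results of these data known. Relatives are named where their p was among the 4 smallest of a list or, for the number, the 8 smallest of all lists; Tnr and Spp1 are named outside this rule. Exon lengths came from GENCODE M21 (GRCm38) and sequences from RefSeq (GRCm38.p6). Alternatives were other pseudocounts, filters, scaling, weights, the replicate block and leaving out libraries.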

Additional observations from a re-analysis of the deposited data

How the results depend on the processing

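Of 170 values for single genes over 17 alternative settings of the KO against control fit, 149 kept their direction, 21 changed sign and 0 passed the threshold (lowest adjusted p 0.0575). The other filters, limma without trend and the replicate block on all libraries cannot alter a gene's difference, so signs could change only under the remaining settings. Leaving out 1 library at a time gave log2 differences from -0.25 to 0.68 for Tnc, -0.16 to 0.28 for Tnxb, -0.0948 to 0.162 for Thbs3, -0.0621 to 0.656 for Postn, -0.36 to 0.17 for Fn1, -0.0763 to 0.317 for Sparc, -0.14 to 0.15 for Bgn and -0.0304 to 0.172 for Aspn. Thbs1 stayed below 0 (-0.59 to -0.07) and Thbs2 above 0 (0.09 to 0.48). The median of the 10 genes ran from -0.0687 without control library 1 to 0.224 without KO library 1, and was -0.0544 without KO library 2. With the replicate block and both libraries numbered 2 left out, Tnc was -0.19, Thbs3 -0.0854 and Bgn -0.11. In the other direction, sample quality weights gave 0.77 for Tnc, and the block without the libraries numbered 1 gave 0.72. Fn1 was 0.0835 and 0.122 when the block was used and both libraries numbered 1 or 3 were left out, and 0.10 with sample quality weights. The replicate block alone leaves all 10 differences as they were by design, since each group holds 1 library of each number. With it 0 of 10 were past the threshold. Over all genes the count past the threshold, 0, became 1 with the replicate block and 2 with sample quality weights (2228 at an unadjusted p under 0.05). Leaving out both libraries numbered 1 under the block gave 61, and leaving out both numbered 2 gave 1.

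For the replicate number, 2069 genes and 6 of the 10 passed. These were 0 and 0 without the expression minimum, 0 and 0 in limma without trend, 819 and 3 (Tnxb, Postn and Sparc) without the group term, and from 0 to 2656 and 0 to 8 with 1 library left out, a check chosen after seeing the data. The lone library of a number is then assumed to vary like the others. Other pseudocounts, a mean of at least 50 and upper-quartile scaling each kept 6. The cause of these changes was not tested. At 1479069 to 2935114 estimated reads, precision is lowest for Tnn, Omd and other genes of low value.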

Other observations

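Markers listed for cells other than smooth muscle were read at differing levels. The 10 endothelial markers summed to 344, 504 and 680 among controls against 401, 952 and 905 among KO libraries. Flt1 alone gave 100, 185 and 241 against 117, 482 and 380 of these, and the 9 others summed to 244, 319 and 439 against 284, 470 and 525. By fitted difference 10 of 10 endothelial markers were higher, where 50.18% of all tested genes were higher. By the same measure 8 of 8 pericyte markers were higher, 8 of 8 smooth muscle markers lower and 10 of 12 fibroblast markers lower. On these lists 0 genes passed limma's adjusted p of 0.05 for KO against control. The smooth muscle log2 differences ran from -0.291 for Cnn1 to -3e-04 for Acta2, so some of these directions rest on differences near 0. The 8 skeletal muscle fibre markers summed to 1279, 2074 and 3125 against 1829, 3839 and 7655. Ttn alone gave 422, 442 and 868 against 660, 1638 and 5386 of these, and the 7 others summed to 857, 1632 and 2257 against 1169, 2201 and 2269. The tendon markers summed to 1623, 1943 and 2216 against 1856, 1533 and 1952, of which Egr1, which is not restricted to tendon, gave 921, 1198 and 1312 against 1003, 879 and 1210. Leukocyte markers were at 485, 115 and 373 against 323, 108 and 463, with Cd3e and Cd79a at 0 in some libraries. Lyz2 gave 151, 38 and 145 against 101, 44 and 249 of the leukocyte sums. The part of all these markers in the values of the matrix genes was not tested.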
